A study of Mus musculus with 4 samples.

Results

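The cytochrome P450 genes of families 1 to 3 were followed in livers that lack NIPP1. All non-control spots whose gene name begins with Cyp1, Cyp2 or Cyp3, then a subfamily letter and a number, were taken from the array files. This gave 83 spots, 74 probes and 56 genes, out of 30570 gene names and unnamed probes on the array. The knockout mice are labelled as conditional liver knockouts of NIPP1, and the others simply as control. All 8 mice were males of a mixed strain, untreated and 2 months old, and each of 4 arrays carried total liver RNA of 1 knockout and 1 control mouse in different dyes. The knockout RNA carried Cy3 on arrays 1 and 2 and Cy5 on arrays 3 and 4, and no mouse was measured more than once. Neither the Cre driver nor which exons were removed is stated in the sources used here. NIPP1 is a nuclear protein that binds and regulates protein phosphatase 1, and its gene is Ppp1r8.

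These enzymes sit in the membrane of the endoplasmic reticulum of hepatocytes, where each uses a haem group and electrons from P450 reductase to oxidise drugs, steroids, bile acids, fatty acids and plant compounds. Many of their genes are switched on by nuclear receptors that sense foreign compounds: CAR acts above all on the Cyp2b genes, PXR on the Cyp3a genes and the aryl hydrocarbon receptor on the Cyp1 genes. Several subfamilies form clusters of near-identical neighbours, and in mouse liver some members are expressed mainly in one sex or along one side of the lobule.

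Because the neighbours are so alike, a probe can bind more than the transcript it is named for. Of the 74 probes, 8 listed more than 1 RefSeq gene. Both Cyp2a4 probes also listed Cyp2a5, and the probe named Cyp2c68 also listed Cyp2c40 and Cyp2c69. One Cyp2c67 probe listed Cyp2c40 and Cyp2c68. One of the Cyp3a11 probes listed Cyp3a41a, Cyp3a41b and Cyp3a44, and the Cyp3a41b probe listed Cyp3a41a. The Cyp2c66 probe listed Cyp2c65, and a Cyp2j13 probe listed Cyp2j12. Cyp2a5, Cyp2c40, Cyp2c69, Cyp2j12 and Cyp3a41a had no probe under their own name. A comparison of all 2701 pairs of member probes, aligned without gaps over at least 30 bases, found 5 pairs at 85% identity or above. The stretches below are shown because these pairs bear on the Cyp2c and Cyp3a values. Each is 30 bases of a probe in the orientation of the array files, and capitals mark the bases at which the members of a pair differ.
Cyp2c67 (probe at chr19:39683429-39683488 on mm9): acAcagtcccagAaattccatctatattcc
Cyp2c68 (probe at chr19:39763420-39763479 on mm9): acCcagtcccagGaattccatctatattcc
Cyp2c37 (probe at chr19:40086467-40086526 on mm9): aCactgACttttatccaGttcttttgcctC
Cyp2c50 (probe at chr19:40188154-40188213 on mm9): aTactgCTttttatccaTttcttttgcctG
Cyp2c29 (probe at chr19:39403642-39403701 on mm9): tggGcactttctaAatgCgaatggaaaCtt
Cyp2c37, second probe (chr19:40084382-40084441 on mm9): tggCcactttctaGatgGgaatggaaaGtt
Cyp3a41b (probe at chr5:146319794-146319853 on mm9): cagtgtctgtAcaGgttaTcatCtaatTAA
Cyp3a44 (probe at chr5:146585717-146585776 on mm9): cagtgtctgtGcaAgttaAcatAtaatACG

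The Cyp2c67 and Cyp2c68 probes were identical at 55 of 59 aligned bases, the Cyp2c37 and Cyp2c50 probes at 35 of 40, the Cyp2c29 and second Cyp2c37 probes at 27 of 31, and the Cyp3a41b and Cyp3a44 probes at 46 of 53. The remaining pair was a pair of Cyp2c54 probes that share 42 bases. How far a mismatched transcript bound a probe was not measured.

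Promoters were read from RefSeq on GRCm38.p6, over 250 bases before to 50 after each gene start, and 47 of the 56 genes matched, with 50 promoters. The letters CAAAGTCCA, a motif of the hepatocyte factor HNF4, occurred on either strand in 7 of the 50 member promoters (14.0%) and in 0.475% of all 32851 promoters. The 7 stood in Cyp2c and Cyp3a genes and all read on the gene strand, 64 to 125 bases before the gene start. They are printed, with 15 bases on each side and the motif in capitals, to show the bases around it. The motif itself is shared by selection. Of the Cyp2c genes whose larger ratios were on arrays 2 and 4, described below, Cyp2c37, Cyp2c50, Cyp2c54 and Cyp2c55 are not among the 7. Cyp2c55 had a promoter that was searched, which held the letters TATAAA but not CAAAGTCCA. Only 47 of the 56 genes had a promoter to search. For Cyp2c37, Cyp2c50 and Cyp2c54 absence from the 7 thus need not mean absence of the letters.
Cyp2c65 (chr19:39060875-39060913, + strand): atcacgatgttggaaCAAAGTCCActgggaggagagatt
Cyp2c67 (chr19:39649144-39649182, - strand): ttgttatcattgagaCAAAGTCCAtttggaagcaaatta
Cyp2c68 (chr19:39741155-39741193, - strand): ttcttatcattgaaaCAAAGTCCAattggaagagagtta
Cyp2c70 (chr19:40187327-40187365, - strand): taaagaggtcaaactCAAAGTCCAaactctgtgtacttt
Cyp3a11 (chr5:145879940-145879978, - strand): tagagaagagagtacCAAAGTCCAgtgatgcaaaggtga
Cyp3a16 (chr5:145469799-145469837, - strand): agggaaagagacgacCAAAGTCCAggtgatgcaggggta
Cyp3a41b (chr5:145584802-145584840, - strand): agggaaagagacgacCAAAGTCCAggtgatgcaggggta

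The Cyp3a16 and Cyp3a41b windows had the same letters. The TATA box letters TATAAA occurred in 24 of the 50 member promoters (48%) and in 13.6% of all promoters. The aryl hydrocarbon receptor core GCGTG occurred in 9 (18.0%) and in 32.4% of all, and the STAT5 letters TTCNNNGAA in 1 (2.0%) and in 8.3% of all. All were searched on both strands, and a match is a description of the letters only.

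Ratios are given as log2 knockout over control on arrays 1, 2, 3 and 4 in that order, and levels as normalised log2 intensity of each mouse. Means carry the standard error (SE) of the limma fit with n = 4 arrays, which has a dye term. That SE leaves out differences between the dye orientations, so array values are given with it. With 1 array left out, the value given is the estimate of the same fit. That estimate weighs the dye orientations equally and so differs from the plain mean of the remaining arrays. Adjusted p-values are two-sided and were adjusted over all 16306 tested genes, with a threshold of 0.05. Testing required a probe to be well above background in 3 or more mice of either genotype, and the brightest tested probe stood for its gene. Total RNA of whole liver cannot tell fewer cells of a type from less RNA per cell.

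Each array held 44397 spots, none saturated, and 52.7% to 56.3% of non-control spots were well above background. The main probe of Ppp1r8 had -0.60, -0.73, -0.74 and -0.63 on the 4 arrays, a mean of -0.68 ± 0.05 (SE, n = 4; adjusted p 0.059). Whether its probes lie in the deleted part was not determined. The ratios of arrays correlated only weakly across genes, between -0.27 (arrays 1 and 4) and 0.52 (arrays 3 and 4). Array 1 stood apart: the 8 pancreatic acinar marker genes, all tested, had a median of 4.16 there and of -2.62, -0.16 and -1.04 on arrays 2 to 4. The part of this in the P450 values was not tested, and values without array 1 are given where it matters. The 7 hepatocyte markers, among them Alb, were all measured, with array medians of -0.35, -0.24, 0.09 and 0.46.

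Of the 56 genes, 45 had a tested probe. None of the 45 passed an adjusted p of 0.05, as none of all tested genes did (0%), and 10 of the 45 (22.2%) had an unadjusted p under 0.05, against 22.7% of all genes. At an adjusted p of 0.1, 4 of the 45 (8.89%) were reached, against 5.56% of all genes. Of these, Cyp2a4, Cyp2d40 and Cyp2d37-ps were higher in knockout livers (background 3.51%) and Cyp2c68 was lower (background 2.05%). Over all genes 573 of the 907 that reached 0.1 were higher in knockout livers, against 724 of 892 with processed signals and 1061 of 1400 with median centring. A total of 6 genes (13.3%) were higher in the knockout mouse on all 4 arrays, the same share as among all genes (13.3%): Cyp2a4, Cyp2d12, Cyp2d37-ps, Cyp2d40, Cyp2j6 and Cyp2r1. Cyp2j5 was the 1 gene lower on all 4 (background 10.9%). By level, 4 genes had every knockout mouse above every control mouse (background 7.05%): Cyp2a4, Cyp2d37-ps, Cyp2d40 and Cyp2j6. Cyp2j5 had every knockout mouse below every control mouse (background 4.97%).

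The median over the 45 genes was 0.10, with 31 genes above 0 and 14 below. Over all tested genes the median was -0.00075, with 8099 above 0 and 8207 below. The array medians of the 45 were -0.15, 0.10, 0.14 and 0.25, so they differed in sign between array 1 and the others.

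**Figure D1:**
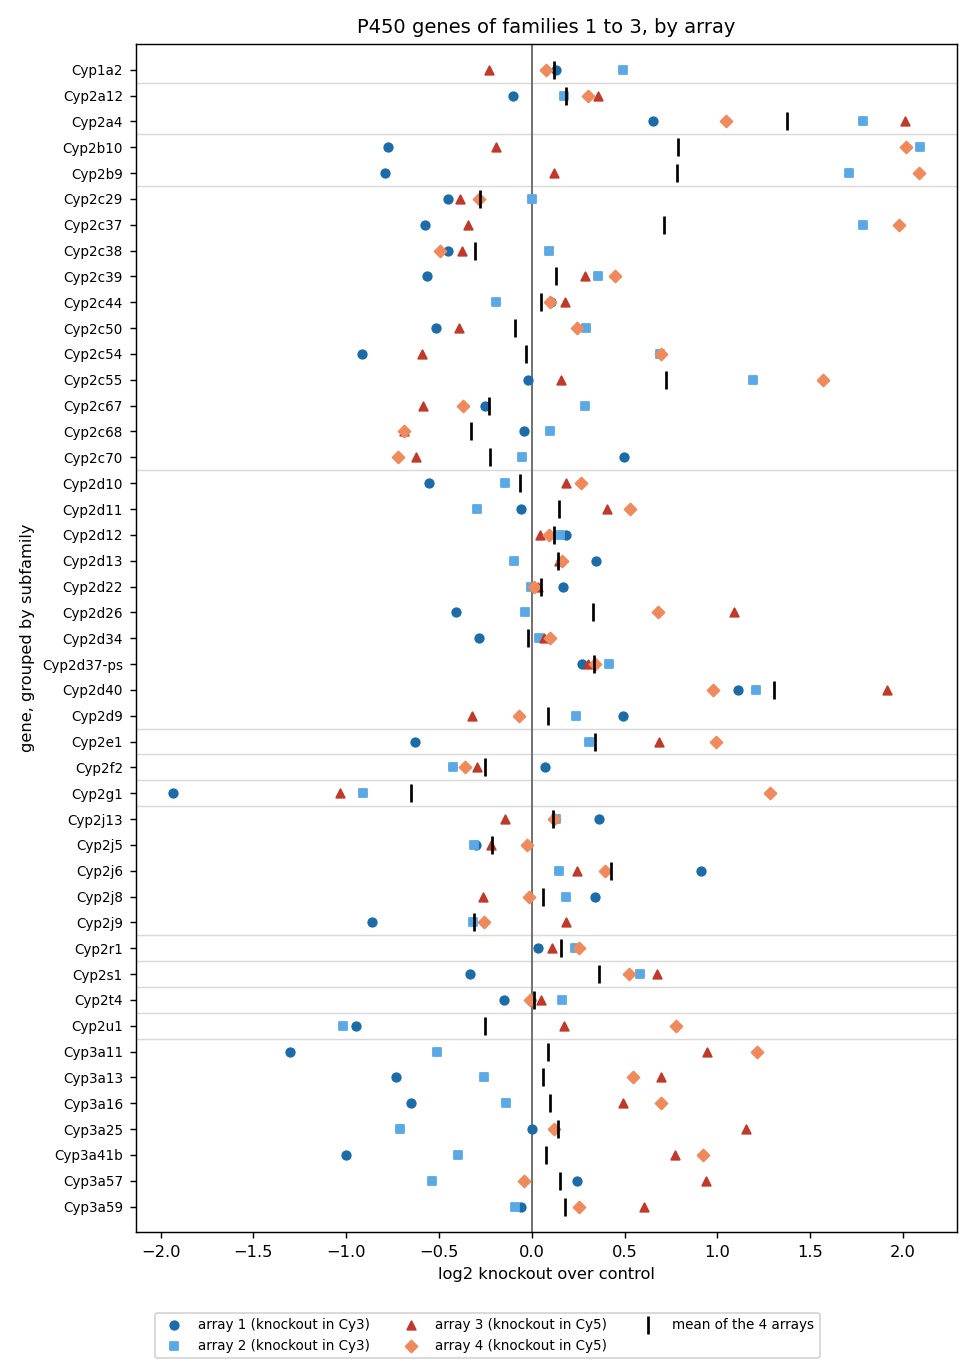
Log2 knockout over control (x axis) of each tested P450 gene (rows, grouped by subfamily) on each array, with blue marks for the arrays with knockout RNA in Cy3, red and orange marks for those with it in Cy5, and a bar for the mean. Cyp2a4 and Cyp2d40 lie above 0.6 on every array, the Cyp2b genes and Cyp2c37 split by array, and most Cyp3a genes split by dye.

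In the Cyp2a subfamily, clustered on chromosome 7, the probes named Cyp2a4 gave the largest mean among the 45 genes. Cyp2a4 and Cyp2a5 are close relatives that hydroxylate steroids and coumarin, and Cyp2a4 is expressed mainly in female liver. Knockout mice had 16.08, 16.41, 16.92 and 16.27 on arrays 1 to 4, against 15.43, 14.63, 14.91 and 15.23 in control mice. Every knockout mouse lay above every control mouse. The ratios were 0.66, 1.78, 2.01 and 1.04, a mean of 1.37 ± 0.26 (SE, n = 4), or 2.59-fold (adjusted p 0.097). The first probe lies at chr7:27099880-27099939 on mm9, and the second, which spans chr7:27098659-27099724, had 0.64, 1.61, 1.41 and 0.88. Since both probes list Cyp2a5 as well, the 2 transcripts cannot be told apart here.

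Cyp2a12, a steroid hydroxylase, had -0.10, 0.17, 0.35 and 0.30, with a mean of 0.18 ± 0.07 (SE, n = 4; adjusted p 0.211). The Cyp2a22 probe was well above background in 2 knockout mice and 1 control mouse and was not tested.

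The Cyp2b genes, also on chromosome 7, are the best-known targets of CAR, and Cyp2b9 and Cyp2b13 are expressed mainly in female liver. They differed widely between arrays. Cyp2b10 had levels of 10.45, 12.40, 10.82 and 12.18 in knockout mice, against 11.22, 10.30, 11.02 and 10.16 in control mice. The knockout mice of arrays 2 and 4 were the highest of all 8, and the knockout mice of arrays 1 and 3 lay among the controls. Its ratios were -0.77, 2.09, -0.19 and 2.02, a mean of 0.79 ± 0.62 (SE, n = 4; adjusted p 0.506). The fitted Cyp2b10 value was 1.5 without array 1 and 1.34 without array 3, but 0.07 without array 2 and 0.23 without array 4.

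Cyp2b9 was likewise highest on arrays 2 and 4, with -0.79, 1.71, 0.12 and 2.09, a mean of 0.78 ± 0.55 (SE, n = 4; adjusted p 0.454). With 1 array left out the fitted Cyp2b9 value lay between 0.16 (without array 2) and 1.41 (without array 1). Its probe was well above background in 4 knockout and 2 control mice. The knockout mice of arrays 2 and 4 again were above all others, at 7.98 and 8.64, against at most 7.42 in control mice. With the scanner's processed signals the Cyp2b9 mean was 1.91, whereas the main correction adds an offset of 50 that compresses the ratios of dim probes. Cyp2b13 had too few bright spots to be tested, with -0.41, 1.37, 0.05 and 2.68. It was well above background in 2 knockout mice and in no control mouse. With control mice set to at least the lowest signals measured above background, the mean of the 4 knockout mice was 1.77-fold higher for Cyp2b13. That value rests on the knockout mice of arrays 2 and 4 and is not a bound for each mouse. The highest levels of all 3 Cyp2b genes were thus those of the same 2 of 4 knockout mice, 1 in each dye. The control mice of arrays 2 and 4 were also the lowest controls for Cyp2b10, at 10.30 and 10.16, and for Cyp2b9, at 6.27 and 6.55. Low control levels thus also entered the large ratios of these 2 genes. Cyp2b19 and Cyp2b23 were well above background in at most 1 mouse of a genotype.

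**Figure D2:**
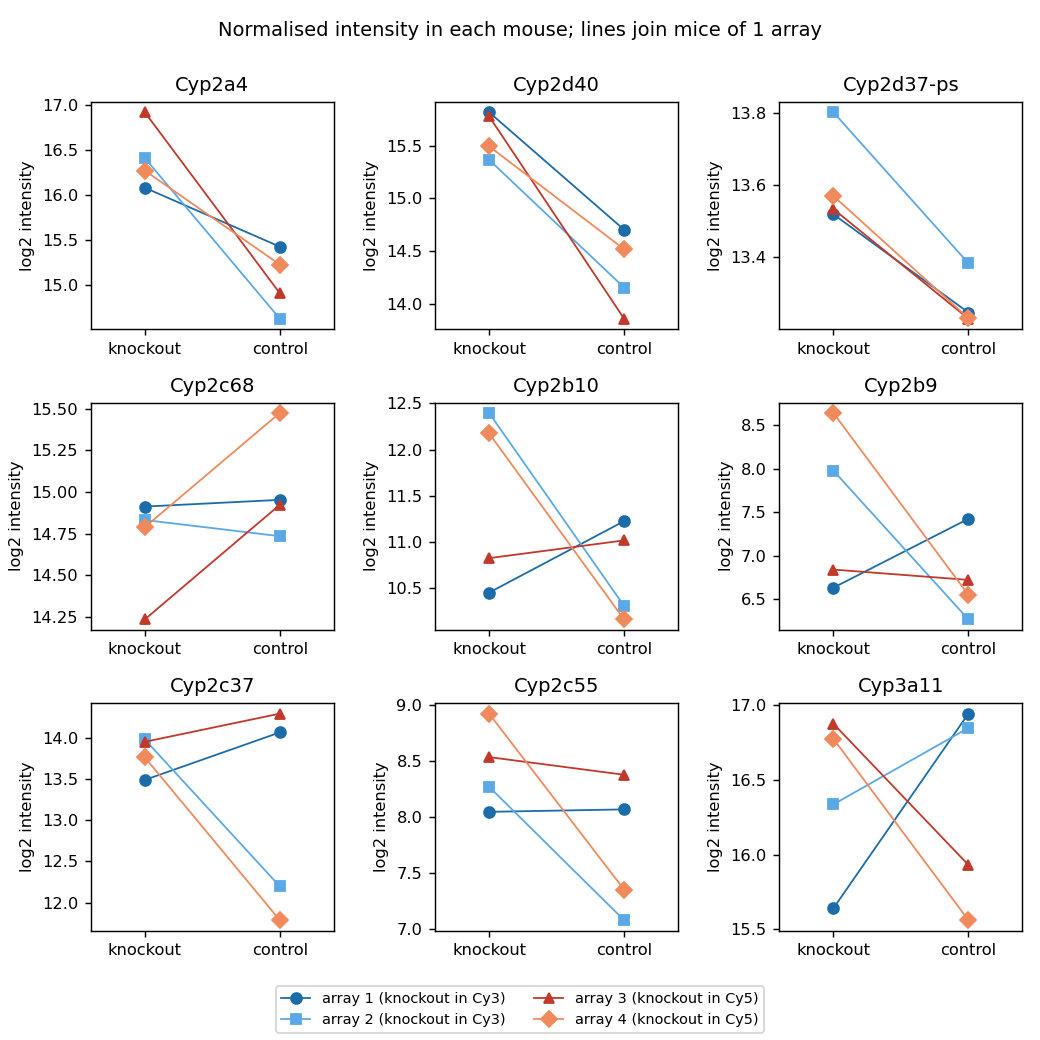
Normalised log2 intensity (y axis, own scale for each gene) of the 4 knockout mice at the left and the 4 control mice at the right of each panel, with a line joining the mice that shared an array. Cyp2a4, Cyp2d40 and Cyp2d37-ps show no overlap of the genotypes, Cyp2b10 and Cyp2b9 are high in the knockout mice of arrays 2 and 4, Cyp2c37 is low in the control mice of arrays 2 and 4, and the lines of Cyp3a11 cross by dye.

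The Cyp2c subfamily on chromosome 19 holds fatty acid epoxygenases and drug-oxidising enzymes. Of 13 genes, 11 were tested, with 4 above 0, 7 below and a median of -0.09. The array medians were -0.45, 0.29, -0.39 and 0.10, positive on arrays 2 and 4 alone.

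Cyp2c37, an arachidonic acid epoxygenase, showed this alternation most clearly. Knockout mice had 13.49, 13.98, 13.95 and 13.76, against 14.07, 12.20, 14.29 and 11.79 in control mice. The 4 knockout mice were alike, and the control mice of arrays 2 and 4 lay well below the other two. For Cyp2b10 both genotypes fell into pairs. The knockout mice of arrays 2 and 4 were the high pair, and the control mice of arrays 2 and 4 the low pair, at 10.30 and 10.16 against 11.22 and 11.02. The ratios of Cyp2c37 were -0.58, 1.78, -0.34 and 1.98, a mean of 0.71 ± 0.57 (SE, n = 4; adjusted p 0.511). The fitted Cyp2c37 value was 0.12 without array 2 and 0.13 without array 4, but 1.30 without array 1 and 1.29 without array 3. Its second probe, the one that resembles the Cyp2c29 probe, kept the order of signs at -0.62, 0.51, -0.41 and 0.45 but had a mean of -0.02.

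The neighbours Cyp2c54 and Cyp2c50 had the same signs in the same order. Cyp2c54 had -0.91, 0.69, -0.59 and 0.70 and a mean of -0.03 ± 0.36 (SE, n = 4; adjusted p 0.971). Its other probes had means of -0.20 and -0.16. Cyp2c50 had -0.52, 0.29, -0.39 and 0.24 and a mean of -0.09 ± 0.18 (SE, n = 4; adjusted p 0.794). The levels of both were lowest, among controls, in the mice of arrays 2 and 4, at 14.95 and 14.89 for Cyp2c54. Cyp2c55, a dim member that CAR and PXR induce, had -0.02, 1.19, 0.16 and 1.57, with a mean of 0.72 ± 0.32 (SE, n = 4; adjusted p 0.278), and 1.12 with processed signals. With 1 array left out the fitted Cyp2c55 value lay between 0.37 (without array 4) and 1.08 (without array 3).

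Cyp2c29, one of the CAR-responsive Cyp2c genes, was printed 10 times on each array and so was read more precisely than other members. Knockout mice had 15.34, 15.65, 15.52 and 15.64, against 15.79, 15.65, 15.91 and 15.92 in control mice. Its ratios were -0.45, 0.00, -0.39 and -0.29, and the spots of 1 array had an SD of 0.036 to 0.061. The spread between arrays (SD 0.20) was larger than the spread between spots. The mean was -0.28 ± 0.09 (SE, n = 4; adjusted p 0.186).

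The probe named Cyp2c68 had the lowest adjusted p of the Cyp2c genes, at 0.076, with a mean of -0.33 ± 0.05 (SE, n = 4). Its levels were 14.91, 14.83, 14.24 and 14.79 in knockout mice, against 14.95, 14.73, 14.92 and 15.48 in control mice. The genotypes overlapped. The ratios were -0.04 and 0.10 with knockout RNA in Cy3 and -0.69 and -0.69 with it in Cy5, so the small error reflects agreement within each dye orientation, and without a dye term the adjusted p was 0.430. The Cyp2c67 probe that differs from it at 4 bases had 0.20, 0.01, -0.85 and -0.97. The other Cyp2c67 probe, the brightest, had -0.25, 0.29, -0.59 and -0.37. Cyp2c68 and both Cyp2c67 probes were lower on arrays 3 and 4 in knockout livers, and their signs were mixed on arrays 1 and 2.

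Cyp2c70, the enzyme that makes muricholic acids in mice, had 0.50, -0.05, -0.63 and -0.72, a mean of -0.23 ± 0.11 (SE, n = 4; adjusted p 0.294). Cyp2c39, which hydroxylates retinoic acid, had -0.56, 0.35, 0.28 and 0.45, with a mean of 0.13 ± 0.17 (SE, n = 4; adjusted p 0.679). Cyp2c44, named Cyp2c23 in current RefSeq, had a mean of 0.05. The probes of Cyp2c38 disagreed in sign, with means of -0.31 for the brighter and 0.24 for the dimmer. The probes of Cyp2c65 and Cyp2c66 were well above background in 1 control mouse and in no knockout mouse. Computed as for Cyp2b13 with the genotypes exchanged, the control mean was 0.986-fold the knockout level for Cyp2c65 and 1.01-fold for Cyp2c66. A genotype difference was thus not shown for either.

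All 10 genes of the Cyp2d cluster on chromosome 15 were tested, with 8 above 0 and a median of 0.13. Cyp2d40 stood out among them. Knockout mice had 15.82, 15.37, 15.78 and 15.49, against 14.70, 14.16, 13.86 and 14.52 in control mice. The lowest knockout mouse was brighter than the highest control mouse. The ratios of 1.11, 1.21, 1.92 and 0.97 gave a mean of 1.30 ± 0.17 (SE, n = 4), or 2.47-fold, with an adjusted p of 0.065. It had the lowest adjusted p of the 45 genes. Without array 1 the fitted value was 1.33 for Cyp2d40 and 1.66 for Cyp2a4. With any 1 array left out neither reached 0.1, with adjusted p-values of 0.151 to 0.244 for Cyp2d40 and 0.133 to 0.325 for Cyp2a4.

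Cyp2d37-ps, a pseudogene of the cluster, differed less but evenly. Knockout mice had 13.52, 13.80, 13.53 and 13.57, against 13.25, 13.38, 13.23 and 13.23 in control mice, without overlap. The ratios of 0.27, 0.42, 0.30 and 0.34 had a mean of 0.33 ± 0.05 (SE, n = 4; adjusted p 0.077). Cyp2d12 was higher on 4 arrays by 0.05 to 0.18.

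The other Cyp2d genes had smaller means, and several split by dye. Cyp2d9, a testosterone hydroxylase of male mouse liver, had 0.49, 0.24, -0.32 and -0.07 (mean 0.08; adjusted p 0.558). Cyp2d10 had -0.56, -0.15, 0.18 and 0.27 (mean -0.06; adjusted p 0.695). Cyp2d22 had 0.17, -0.01, 0.03 and 0.01 (mean 0.05; adjusted p 0.614). Cyp2d22 thus lay within 0.17 of equal on every array. Cyp2d26 had -0.41, -0.04, 1.09 and 0.68 (mean 0.33; adjusted p 0.179), above 0 with the knockout in Cy5 and below with it in Cy3. Cyp2d11, Cyp2d13 and Cyp2d34 had means of 0.14, 0.14 and -0.02.

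Cyp3a enzymes, encoded on chromosome 5, are the main PXR-induced drug oxidases, and Cyp3a11 is the most studied in mouse liver. All 7 tested genes had means between 0.06 and 0.18, yet for 5 of them the sign on an array followed the dye. Cyp3a11 had 15.64, 16.33, 16.87 and 16.77 in knockout mice, against 16.94, 16.85, 15.93 and 15.56 in control mice. On every array the mouse labelled with Cy5 was the brighter one. Its ratios were -1.30, -0.51, 0.94 and 1.21, with a mean of 0.09 ± 0.15 (SE, n = 4; 95% confidence interval -0.32 to 0.49; adjusted p 0.769), and Cy5 exceeded Cy3 by 0.99 on average.

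Cyp3a41b, a gene of female mouse liver, ran in parallel at -1.0, -0.40, 0.77 and 0.92 (mean 0.07; adjusted p 0.738). Cyp3a16, which is active mainly around birth, had -0.65, -0.14, 0.49 and 0.69 (mean 0.10; adjusted p 0.620). Cyp3a13 had -0.73, -0.26, 0.69 and 0.54 (mean 0.06; adjusted p 0.743). The second Cyp3a13 probe instead had -1.26, -0.75, -0.33 and -0.33, below 0 on all 4 arrays, and averaged -0.67. Cyp3a25 missed the pattern only by a value of 0.0023 on array 1, with 0.00, -0.71, 1.16 and 0.12 (mean 0.14; adjusted p 0.741). For Cyp3a25, Cy5 exceeded Cy3 by 0.50 on average. Cyp3a57 and Cyp3a59 had means of 0.15 and 0.18. Cyp3a44 was well above background in 1 knockout mouse and no control mouse, with -0.00, 0.11, 0.56 and -0.09. Computed as for Cyp2b13, its knockout mean was 1.06-fold higher, so a genotype difference was not shown.

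Across the 45 genes, 9 (20%) were brighter in Cy5 on all 4 arrays, whichever genotype it labelled, against 14.4% of all genes. They were Cyp2d10, Cyp2d11, Cyp2d26, Cyp2u1, Cyp3a11, Cyp3a13, Cyp3a16, Cyp3a41b and Cyp3a59. Another 2 (4.44%), Cyp2d9 and Cyp2j8, were brighter in Cy3 on all 4, against 9.85% of all genes. Each dye orientation held other mice, so a dye effect and a difference between the mice of the orientations cannot be told apart.

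**Figure D3:**
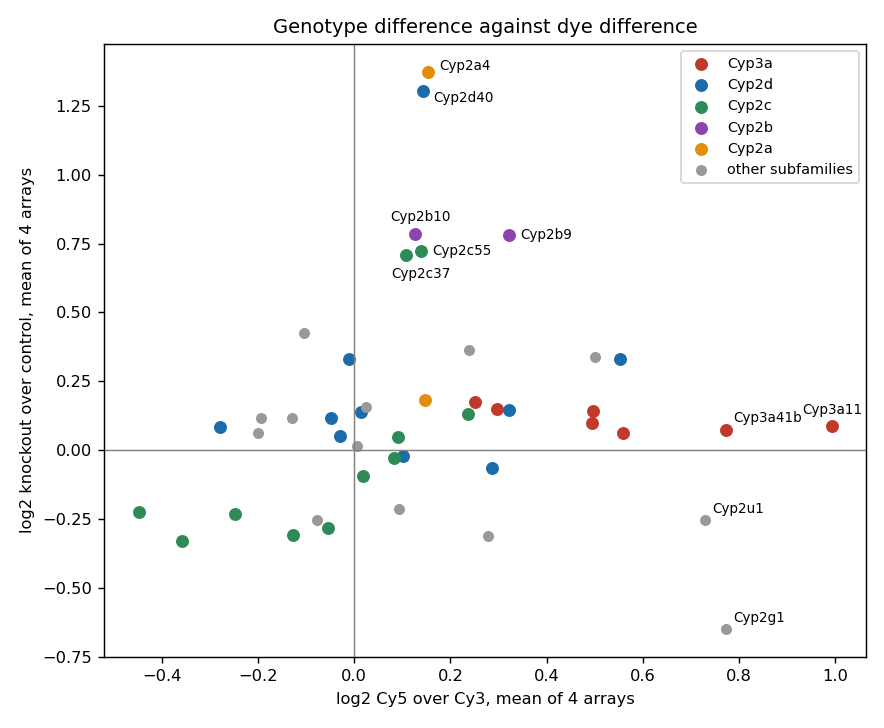
Mean log2 Cy5 over Cy3 of the 4 arrays (x axis) against mean log2 knockout over control (y axis) for the 45 tested genes, coloured by subfamily. Cyp3a genes extend to 0.99 along the dye axis with genotype means of at most 0.18, whereas Cyp2a4 and Cyp2d40 are far up the genotype axis with dye means of 0.15 and 0.14.

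The single-gene subfamilies and the Cyp1 genes gave smaller or less even values. Cyp1a2, a target of the aryl hydrocarbon receptor that oxidises caffeine, had 0.13, 0.49, -0.23 and 0.08 (mean 0.12 ± 0.09, SE, n = 4; adjusted p 0.507). Cyp1a1 was well above background in 1 mouse of each genotype, with -0.21, 0.00, 0.15 and 0.14. Cyp1b1 was well above background in no mouse, with -0.07, -0.18, -0.07 and 0.08, and was not tested.

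Cyp2e1, the enzyme that oxidises ethanol and paracetamol in pericentral hepatocytes, had -0.63, 0.31, 0.68 and 0.99 (mean 0.34 ± 0.17, SE, n = 4; adjusted p 0.330). Its second probe had the same signs. Without array 1 the fitted value of Cyp2e1 was 0.57 (adjusted p 0.147). Cyp2f2, a periportal enzyme that oxidises naphthalene, had 0.07, -0.42, -0.30 and -0.36 (mean -0.25 ± 0.10, SE, n = 4; adjusted p 0.232). Both thus had the other sign on array 1 than on arrays 2 to 4.

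Cyp2j enzymes form epoxides of arachidonic acid. Cyp2j5 had 9.24, 9.25, 9.23 and 9.41 in knockout mice, against 9.54, 9.57, 9.45 and 9.43 in control mice, and the closest mice of the genotypes nearly met. Its ratios were -0.30, -0.31, -0.22 and -0.02 (mean -0.21 ± 0.06, SE, n = 4; adjusted p 0.138). Cyp2j6 had 11.36, 11.02, 10.98 and 11.02 in knockout mice, against 10.44, 10.87, 10.73 and 10.63 in control mice. Its ratios were 0.91, 0.15, 0.25 and 0.40 (mean 0.43 ± 0.14, SE, n = 4; adjusted p 0.192), while its dimmer probe averaged 0.07. Cyp2j8, Cyp2j9 and Cyp2j13 had means of 0.06, -0.31 and 0.12, and Cyp2j11 was well above background in no mouse.

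Cyp2r1, a vitamin D hydroxylase, had 0.03, 0.23, 0.11 and 0.25 (mean 0.16 ± 0.06, SE, n = 4; adjusted p 0.242), and its second probe was also above 0 on all 4 arrays. Cyp2u1, a fatty acid hydroxylase, had -0.95, -1.02, 0.18 and 0.78 on its brightest probe (mean -0.25 ± 0.11, SE, n = 4; adjusted p 0.280), which carries no RefSeq gene in the table used. Its other probes had means of 0.31 and 0.10, opposite in sign. Cyp2g1, known from the olfactory lining, ranged from -1.93 on array 1 to 1.28 on array 4. Cyp2s1 and Cyp2t4 had means of 0.36 and 0.01, with 0.71 for Cyp2s1 under processed signals. Cyp2w1 was well above background in no mouse.

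More than 1 probe was tested for 13 genes, and for 5 of these the probe means had opposite signs: Cyp2c37, Cyp2c38, Cyp2d34, Cyp2u1 and Cyp3a13. For these the mean depends on the probe.

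**Figure D4:**
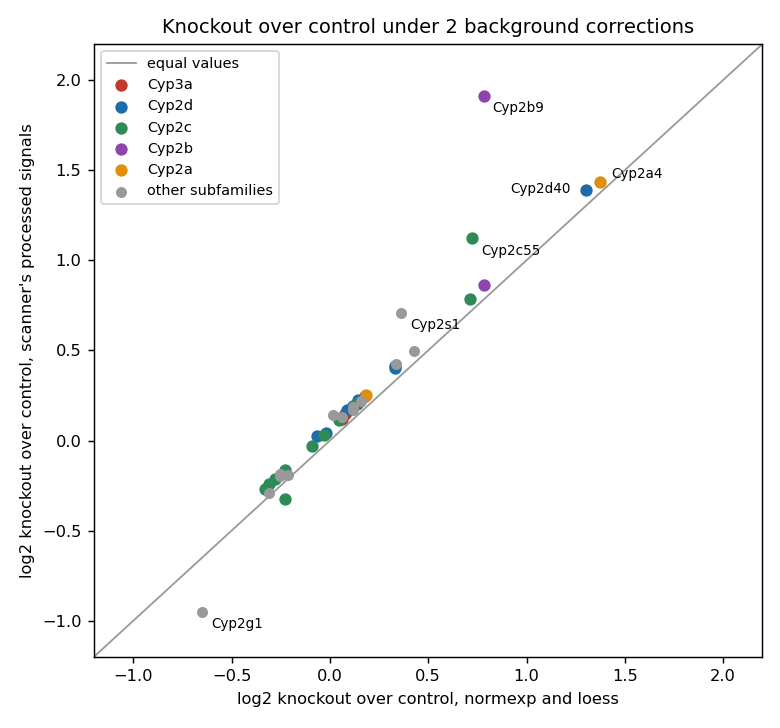
Mean log2 knockout over control of the 45 genes after normexp background correction and loess (x axis). The y axis shows the same from the scanner's processed signals, centred on the median of each array without loess. The line marks equal values. Most genes lie slightly above the line, with a median of 0.17 on the y axis against 0.10 on the x axis. Cyp2b9, Cyp2c55 and Cyp2s1, all dim, lie furthest above it. Cyp2g1, also dim, lies below it, at -0.95 against -0.65. For Cyp2c67, also below it, the axes show different probes.

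Genes known to be expressed mainly in one sex were set apart in lists. Of 9 members listed as female-biased, 4 were tested (Cyp2a4, Cyp2b9, Cyp3a16 and Cyp3a41b). All 4 had means above 0, against 31 of the 45 tested members and 8099 of all 16306 tested genes. Their median was 0.44, with array medians of -0.72, 0.78, 0.63 and 0.98. With 1 array left out that median, taken over the fitted values, lay between 0.06 (without array 2) and 0.82 (without array 1). For Cyp3a16 and Cyp3a41b the sign on each array followed the dye. Cyp2c40 and Cyp2c69 are on the female-biased list but had no probe of their own. The Cyp2c68 probe, which lists both, had a mean of -0.33, and the Cyp2c67 probe that lists Cyp2c40 had -0.23. The Cyp3a11 probe that lists Cyp3a41a, Cyp3a41b and Cyp3a44 had 0.12. The 1 member listed as male-biased, Cyp2d9, had a mean of 0.08, above 0 as for the 4 tested female-biased members. Of 9 tested male-biased liver genes outside the families, 8 were below 0, against 8207 of all 16306 tested genes, with a median of -0.57 and array medians of 0.24, -0.48, -1.29 and -1.08. With 1 array left out that median, taken over the fitted values, lay between -0.90 (without array 1) and -0.28 (without array 2). One was lower at an adjusted p of 0.1 (background 2.05%): Slco1a1, an organic anion carrier, with -0.30, -0.58, -1.81 and -1.32 (mean -1.0 ± 0.11, SE, n = 4; adjusted p 0.059). Of 8 tested regulators of the growth hormone axis and sex pattern, 2 were higher at 0.1 (background 3.51%) and none lower, and the list median was 0.07, with 5 above 0 and 3 below. Prlr, the prolactin receptor, had 0.23, 0.62, 0.92 and 1.5 (mean 0.82 ± 0.13, SE, n = 4; adjusted p 0.078). Trim24, a nuclear receptor co-regulator, had 0.01, 0.25, 0.64 and 0.76 (mean 0.41 ± 0.06, SE, n = 4; adjusted p 0.076). Bcl6, a repressor that growth hormone controls, had -2.11, -3.22, 1.41 and 0.94 (mean -0.74 ± 0.21, SE, n = 4; adjusted p 0.157). For Bcl6 the sign on each array followed the dye, and Cy5 exceeded Cy3 by 1.92 on average. Stat5b, the growth hormone signal transducer, had -1.12, -0.44, -0.53 and 0.24 (mean -0.46 ± 0.18, SE, n = 4; adjusted p 0.239). Bcl6 and Stat5b had the lowest means of that list and are named after their values were seen. Slco1a1, Prlr and Trim24 were all closest to 0 on array 1.

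Of 18 receptors and transcription factors that control P450 genes, 1 was higher (background 3.51%) and 1 lower (background 2.05%) at 0.1, with a median of 0.05. Nfe2l2, the factor of the oxidative stress response, had 0.26, 0.61, 1.0 and 1.09 (mean 0.74 ± 0.08, SE, n = 4; adjusted p 0.059). Arnt, the partner of the aryl hydrocarbon receptor, had -0.41, -0.48, -0.22 and -0.05 (mean -0.29 ± 0.05, SE, n = 4; adjusted p 0.096). Nr1i3, which encodes CAR, had 0.11, 0.79, 0.24 and 0.59 (mean 0.44 ± 0.14, SE, n = 4; adjusted p 0.181). Its larger ratios were on arrays 2 and 4, as for the Cyp2b genes, and it is named after its values were seen.

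Among 10 tested CAR and PXR targets outside the families, 8 were above 0, against 8099 of all 16306 tested genes. The list median was 0.35, and array medians were -0.07, 0.46, 0.46 and 0.49. At an adjusted p of 0.1, 3.51% of all genes were higher and 2.05% lower. Aldh1a7, an aldehyde dehydrogenase, was higher with 0.42, 0.31, 0.48 and 0.50 (mean 0.43 ± 0.05, SE, n = 4; adjusted p 0.062). Ces2a, a carboxylesterase, was lower with -0.85, -0.79, -0.06 and -0.01 (mean -0.43 ± 0.05, SE, n = 4; adjusted p 0.061). Of 5 tested targets of the aryl hydrocarbon receptor, Nqo1, a quinone reductase that Nfe2l2 also controls, reached 0.1 with 0.18, 0.79, 0.91 and 0.79 (mean 0.67 ± 0.12, SE, n = 4; adjusted p 0.087).

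The partners that P450 enzymes need gave few such values. Over all genes 3.51% were higher and 2.05% lower at an adjusted p of 0.1. Of 6 electron donors and haem partners, 1 was lower at 0.1, Pgrmc2, a membrane haem-binding protein, with -1.08, -0.72, 0.13 and 0.03 (mean -0.41 ± 0.08, SE, n = 4; adjusted p 0.099). None of 12 haem genes reached it. Blvra, a biliverdin reductase, had the lowest p there, with 0.31, 0.18, 0.10 and 0.11 (mean 0.18 ± 0.05, SE, n = 4; adjusted p 0.157). Cpox, of haem synthesis, had -0.27, -0.38, 0.02 and -0.05 (mean -0.17 ± 0.05, SE, n = 4; adjusted p 0.163), and its larger values were on the arrays with knockout RNA in Cy3. Alas1, the rate-limiting enzyme of haem synthesis, had 2.18, 2.32, -1.78 and -2.44 and was brighter in Cy3 on every array.

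By zone, 1 of 11 tested pericentral genes outside the families was higher at 0.1, Oat, ornithine aminotransferase, with 0.77, 0.66, 0.13 and 0.01 (mean 0.40 ± 0.05, SE, n = 4; adjusted p 0.067). The Oat ratios were thus large on the arrays with knockout RNA in Cy3 and near 0 on the others. Of 10 periportal genes 1 was higher, Hsd17b13, a lipid-droplet protein, with 0.56, 0.64, 0.59 and 0.53 (mean 0.58 ± 0.05, SE, n = 4; adjusted p 0.059). The list medians were 0.21 and -0.06, and over all genes 3.51% were higher and 2.05% lower at 0.1. Of 13 genes of other P450 families, Cyp4v3, a fatty acid hydroxylase, was higher with 0.40, 0.27, 0.24 and 0.18 (mean 0.27 ± 0.05, SE, n = 4; adjusted p 0.095). Cyp27a1, a sterol hydroxylase of bile acid synthesis, was lower with -0.31, -0.30, -0.70 and -0.36 (mean -0.42 ± 0.07, SE, n = 4; adjusted p 0.088).

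Modelling the dyes as separate channels, with each mouse as its own value, brought 7 of the 45 genes (15.6%) to an adjusted p of 0.05, against 16.9% of all genes. Cyp2a4 (adjusted p 0.0068), Cyp2d40 (0.0032), Cyp2d37-ps (0.0090), Cyp2d26 (0.0417) and Cyp2j6 (0.0362) were higher in knockout livers (background 9.69%), and Cyp2c29 (0.0452) and Cyp2j5 (0.0169) were lower (background 7.24%). With the processed signals none of the 45 reached 0.05, against 1.66% of all genes, and 3 (6.67%) reached 0.1, against 5.47%. The share of P450 genes called thus stayed near that of all genes under each of these rules.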

How the data were processed

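Total liver RNA of 4 knockout and 4 control mice was measured on 4 arrays. Replicates are separate mice, paired only by sharing an array. Per the file headers, Agilent Feature Extraction 10.7.3.1 made the deposited intensities (mean signal, local background and processed signal per spot and dye) and its flags, and probe positions are on mm9. The deposited value table holds log2 ratios. Set against the ratio of processed signals, knockout over control, its 43020 values per array matched to 0.0001, and its column medians were -0.05, 0.14, -0.18 and -0.18.

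Background was corrected with normexp (offset 50). Its parameters were fitted without spots that carry a non-uniformity flag or lie more than 20 units below their background, because on every spot the fitted background of array 1 was -273 in Cy3 and -185 in Cy5, against 4.07 and -12.2 as used here. Loess within arrays followed, with control spots at weight 0. After removal of outlier spots (194 to 230 per array), the spots of each probe were averaged, and 20818 probes of 16306 genes were tested. Of the spots 30708 matched a RefSeq accession. limma 3.58.1 under R 4.3.3 fitted the array ratios with a dye intercept, and p-values were adjusted by Benjamini-Hochberg. Figures were drawn with matplotlib 3.10.9. The number of arrays limits the precision, and all arrays shared 1 slide and scan, so no slide block was fitted.

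The rule named every member by subfamily and gave array values for a fixed set plus any member with 1 sign on 4 arrays and a mean of at least 1 in size, and of each partner list the members at an adjusted p of 0.1 or, failing those, the 2 lowest p. Array values of Cyp2c50, Cyp2c55, Cyp2c67, Cyp2c68, Cyp2d37-ps, Cyp2j6 and Alas1 were given outside this rule, as were those of Bcl6, Stat5b and Nr1i3. Members and lists were chosen with earlier results of these data known. Alternatives were other background corrections, median centring, no dye term, no filter, trend and robust moderation, the mean of a gene's probes, separate channels, and leaving out each replicate. Processed signals were centred on the median of each array without loess. That alternative thus differs from the main fit in both background correction and normalisation.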

Additional observations from a re-analysis of the deposited data

Results flagged for a closer look

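Of 46 genes examined (the 45 tested members and Ppp1r8), 3 had 1 array far from the other 3, in each case array 1. Chance alone marks about 1 gene in 20 by this rule. Cyp2c39 had -0.56 on array 1, against 0.28 to 0.45 on arrays 2 to 4. Cyp2d34 had -0.28 on array 1, against 0.04 to 0.10. Cyp2s1 had -0.33 on array 1, against 0.52 to 0.68. Array 1 is also the array on which the pancreatic acinar markers had a median of 4.16, and the part of this in these 3 values was not tested.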

How the results depend on the processing

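The number of arrays, and signal over background for the 11 untested members, limit these results. The count of P450 genes past 0.05 was 0 under each alternative run, leaving out each replicate included, except separate channels, which gave 7. Over all genes the count of 0 became 271 with processed signals, 29 with no background correction, 210 with median centring, 10 with no dye term, 27 with trend and robust moderation, 257 with no filter and 2760 with separate channels, and remained 0 with normexp on every spot, with the mean of a gene's probes and without any 1 replicate. At 0.1 the 907 genes became 442 with normexp on every spot, 229 with no dye term, 1400 with median centring, 4253 with separate channels, 70 without replicate 1 and 0 without any other replicate. The 4 P450 genes at 0.1 became 2 with normexp on every spot, 1 with no dye term and 14 with separate channels, and the 10 at an unadjusted p under 0.05 became 16 without replicate 1 and 5 without replicate 3. Ppp1r8 passed 0.05 with processed signals (-1.15; adjusted p 0.028), median centring (-0.68; 0.045), no filter (-0.68; 0.038) and separate channels (-0.68; 0.00092), and lay between -0.71 and -0.64 without 1 replicate. The median of the P450 genes lay between 0.06 and 0.17 throughout.

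Signs turned for Cyp2c54 (0.029 with processed signals, 0.027 with median centring), Cyp2d10 (0.024 with processed signals), Cyp2d34 (0.044 with processed signals, 0.036 with median centring, 0.041 with the mean of its probes), and with the mean of their probes for Cyp2u1 (0.051) and Cyp3a13 (-0.30). The cause was not tested. Values with a replicate left out are estimates of the fit with its dye term. With 1 replicate left out in turn, the sign of 14 genes changed at least once: Cyp2c39 (-0.099 to 0.36), Cyp2c44 (-0.026 to 0.12), Cyp2c50 (-0.30 to 0.11), Cyp2c54 (-0.43 to 0.37), Cyp2d10 (-0.17 to 0.039), Cyp2d34 (-0.10 to 0.059), Cyp2j8 (-4.1e-06 to 0.12), Cyp2t4 (-0.065 to 0.092), Cyp3a11 (-0.11 to 0.28), Cyp3a13 (-0.057 to 0.18), Cyp3a16 (-0.029 to 0.23), Cyp3a25 (-0.12 to 0.40), Cyp3a41b (-0.076 to 0.23) and Cyp3a57 (-0.094 to 0.40). None of the 4 P450 genes that reached 0.1 kept it with a replicate left out. The ratio fit is paired by array, and separate channels is the alternative to it; the labels give the mice no other shared numbers. The slide block was not run, since all arrays shared 1 slide.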
